A study of Mus musculus with 6 samples.

Results

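Macrophages are resident immune cells of adipose tissue, and 34 genes that they and related myeloid cells are known for were followed in inguinal adipose tissue (iAT) of young mice. The genes were chosen by symbol, as 34 of the 19831 genes in the authors' deposited table, and all 34 were found. They cover general macrophage genes, resident, lipid-associated and alternative activation genes, and receptors, integrins, lysozymes and cathepsins of myeloid cells. RNA sequencing compared 3 wild-type samples with 3 Npffr1-KO samples, which lack *Npffr1*, the gene of neuropeptide FF receptor 1. All samples were whole iAT at postnatal day 6 from mice kept free of specific pathogens. The labels give no strain, sex, litter or knockout design, and do not say whether the samples of a genotype came from separate animals, so the p-values below measure the spread between these samples only.

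Adipose tissue macrophages engulf dying cells, take up lipid and debris, and answer to growth factors and cytokines of the tissue. Macrophages seeded early in life carry receptors such as *Timd4*, *Lyve1* and *Folr2*, whereas lipid-laden macrophages of expanding fat carry *Trem2* and *Gpnmb*. Alternative activation is the program set off by interleukins of type-2 immunity, and *Retnla* and *Arg1* are among its best known genes in the mouse.

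The deposited table gives 1 value per gene and genotype, in normalized counts, which are read counts scaled for library size. The whole reads of each library were recovered from the digits of these values for 33 of the 34 genes. The libraries were named a, b and c within each genotype, from the largest to the smallest size factor. The letters are not the sample numbers of the labels and pair no libraries between genotypes. Size factors lay between 0.916 and 1.04, and 12464541 to 13747541 reads per library fell on recovered genes, which hold 56.9% of the normalized counts of the table. Genes whose mean reached 10 normalized counts were tested between genotypes with limma, on log2(normalized count + 1), with Benjamini-Hochberg adjustment over all 14234 genes tested. This reached 31 of the 34 genes, because *Vsig4* and *Chil3* lay under the limit and the reads of *Lyz2* were not recovered. Intervals are 95% intervals of the log2 difference, Npffr1-KO minus wild-type. The targeted gene was hardly expressed, with 1, 0 and 5 reads of *Npffr1* in the wild-type libraries and 0 in all 3 Npffr1-KO libraries, where a count of 0 allows up to 3 reads per library. It is too low in wild-type iAT to check the genotype of a single library. Adipocyte genes were abundant, with authors' values of 156285 normalized counts for *Fabp4* and 37027 for *Adipoq* in wild-type.

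*Retnla* was 3.99-fold higher in Npffr1-KO and was the single gene of the 34 that passed the test. It encodes a secreted resistin-like protein known from alternatively activated macrophages, and which cells of the iAT made its RNA was not measured. Adjusted p was at most 0.05 for 1 of the 31 genes tested (3.23%), against 0.576% of all genes tested (0.267% higher and 0.309% lower in Npffr1-KO). Over all genes this was 38 higher and 44 lower, and 33 higher and 60 lower when libraries were scaled by the upper quartile. At an unadjusted p below 0.05, limma found 9 of 31 genes (29.0%), against 20% of all genes. In 6 genes every Npffr1-KO library lay above every wild-type library (19.4%, against 12.4% of all genes). They were *Retnla*, *Cd68*, *Lyz1*, *Spi1*, *Adgre1* and *Trem2*. In 2 genes, *Cd163* and *Mertk*, every Npffr1-KO library lay below every wild-type library (6.45%, against 13.1%). The median log2 difference of the 31 genes was 0.06, and that of all genes tested was 0.00. In bulk tissue, fewer cells of a type and less RNA per cell cannot be told apart.

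**Figure D1:**
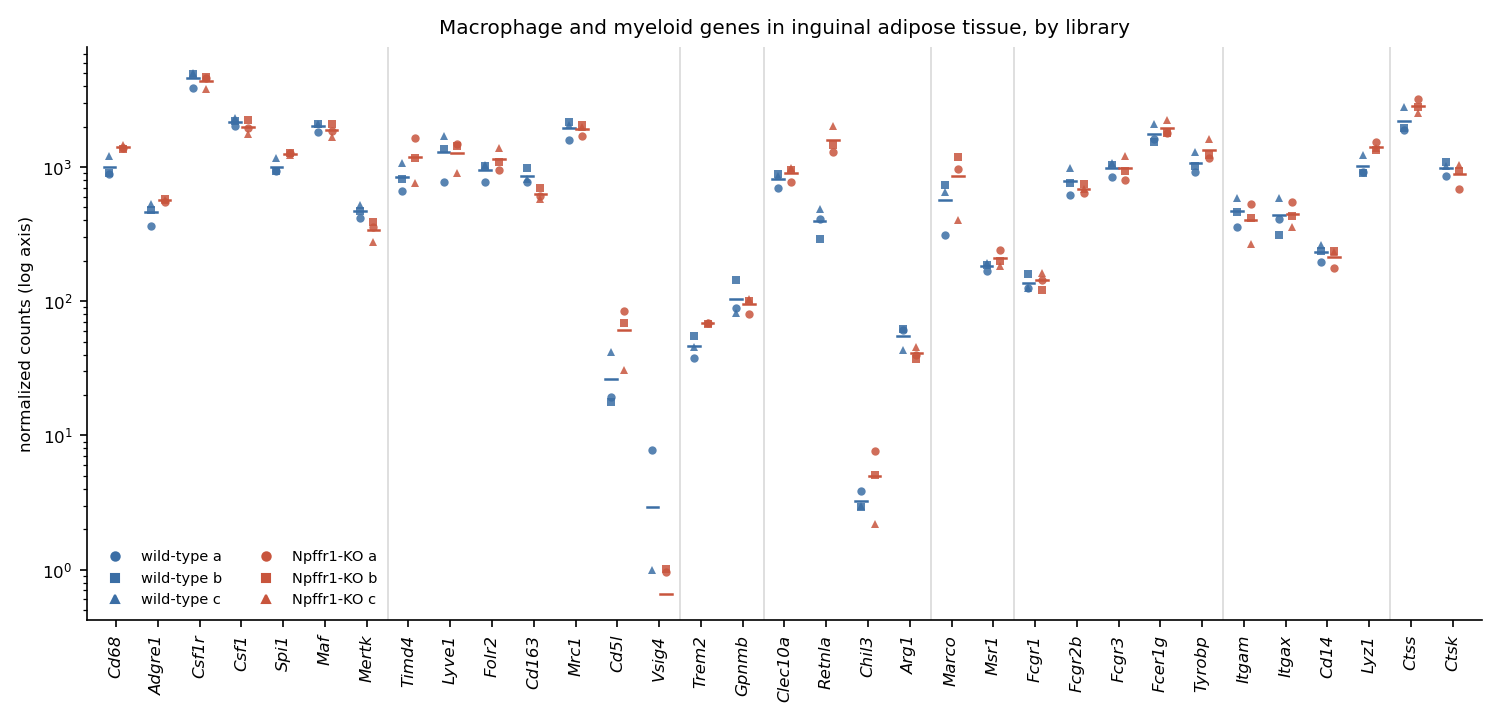
Normalized counts (log axis) of the 33 genes with recovered reads in each of the 6 libraries. Blue symbols are wild-type and red symbols Npffr1-KO libraries, lines are means of 3 libraries, vertical lines separate the subgroups, and libraries with 0 reads (*Vsig4* in wild-type b and Npffr1-KO c) are not drawn. The 3 Npffr1-KO libraries of *Retnla* lie at 1285 to 2014 normalized counts, above the wild-type libraries at 291 to 486.

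The sequence upstream of *Retnla* is shown because it is the gene that passed the test. RefSeq windows of 300 bases (250 before to 50 after the start site, build GRCm38.p6) were at hand for 24 of the 34 genes. That of *Retnla* lies at chr16:48842359-48842658 on the plus strand. Capitals mark matches, on either strand, to 4 motifs: TTC and GAA with 4 bases between them as the letters of a STAT6 site, TTGCNNAA of a C/EBP site, GAGGAA of a PU.1 site and TATAAA of a TATA box, where N is any base.
Retnla: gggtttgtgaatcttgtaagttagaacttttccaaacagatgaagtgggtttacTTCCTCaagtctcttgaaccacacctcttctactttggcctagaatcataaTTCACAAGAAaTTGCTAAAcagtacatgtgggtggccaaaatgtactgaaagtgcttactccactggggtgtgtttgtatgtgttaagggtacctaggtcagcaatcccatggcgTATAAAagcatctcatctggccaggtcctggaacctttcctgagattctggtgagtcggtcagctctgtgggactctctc
Counted from the start site, the match to GAGGAA begins at base -196 on the minus strand, the STAT6 letters at -145, TTGCNNAA at -134 and TATAAA at -30. The percentages below are shares of single windows. A macrophage gene was counted if any of its windows matched, so its counts are not on the same unit as the percentages. The STAT6 letters occur in 6.95% of all 32851 promoter windows, and for 3 of the 24 macrophage genes (*Retnla*, *Cd5l* and *Itgax*). The C/EBP letters occur in 10.8% of all windows and for 6 of the 24 genes, namely *Retnla*, *Cd68*, *Trem2*, *Fcgr3*, *Lyz1* and *Ctsk*. The shorter PU.1 letters are common, at 28.3% of all windows and for 12 of the 24 genes. TATAAA occurs in 13.6% of all windows and for 3 of the 24 genes, namely *Retnla*, *Chil3* and *Ctss*. *Retnla* was the only one of the 24 genes with all 4 motifs. How many of all 32851 windows hold all 4 was not counted, so the combination cannot be called unusual. These matches describe the letters of the window, and no binding was measured.

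Of the 3 alternative activation genes tested, *Retnla* was the one that passed. *Retnla* had 413, 291 and 486 normalized counts in wild-type libraries a, b and c, and 1285, 1452 and 2014 in Npffr1-KO libraries a, b and c. The genotypes did not overlap, and library c was the highest of both. The means were 397 ± 98.8 in wild-type against 1584 ± 382 in Npffr1-KO (SD, n = 3), a log2 difference of 2.0 ± 0.20 (SE, interval 1.55 to 2.45, limma adjusted p = 0.00426). *Arg1*, the arginase of alternatively activated macrophages, had 60.8, 61.7 and 43.7 normalized counts in wild-type against 39.5, 37.3 and 45.8 in Npffr1-KO. These groups overlapped, with a log2 difference of -0.42 ± 0.26 (SE, interval -0.99 to 0.16, limma adjusted p = 0.38). *Clec10a*, a lectin for galactose-type sugars, lay at 701 to 893 normalized counts in wild-type against 769 to 981 in Npffr1-KO, with an interval of -0.15 to 0.43. *Chil3*, which encodes a chitinase-like protein, was nearly silent, at 2.94 to 3.86 normalized counts in wild-type against 2.18 to 7.71 in Npffr1-KO, and was not tested. The ratio of *Retnla* to *Clec10a*, formed within each library, was 0.326 to 0.590 in wild-type and 1.52 to 2.05 in Npffr1-KO. In the authors' genotype values *Retnla* had 419 normalized counts in wild-type against 1561 in Npffr1-KO, a ratio of 3.72. Such ratios of genotype values are drawn towards 1, since they come from the authors' shrunken fit.

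**Figure D2:**
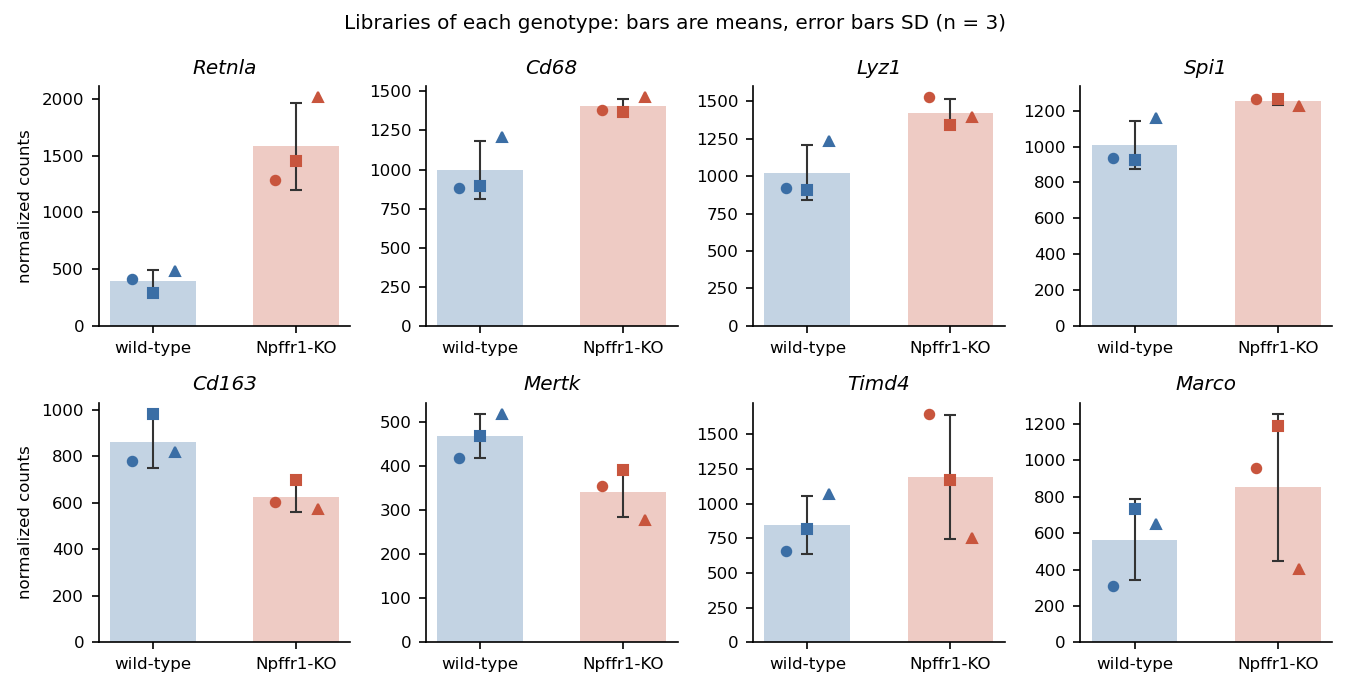
Normalized counts of 8 genes in each library, with linear axes that start at 0. Bars are means of 3 libraries, error bars are SD, and circles, squares and triangles are libraries a, b and c of each genotype. The genotypes do not overlap in *Retnla*, *Cd68*, *Lyz1*, *Spi1*, *Cd163* and *Mertk*, and overlap in *Timd4* and *Marco*.

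General macrophage genes marked all 6 libraries, and none of the 7 passed the test, in limma or with voom weights. Of the 7, 3 had an unadjusted p below 0.05 in limma, against 20% of all genes tested. *Cd68*, which encodes a glycoprotein of endosomes and lysosomes, had 883, 897 and 1209.8 normalized counts in wild-type against 1380.0, 1370.5 and 1461 in Npffr1-KO. It did not overlap between genotypes, at 996 ± 185 in wild-type against 1404 ± 49.7 in Npffr1-KO (SD, n = 3), yet missed the threshold (log2 difference 0.51 ± 0.13 SE, interval 0.23 to 0.79, limma adjusted p = 0.085). *Adgre1*, an adhesion receptor of macrophages, had 366, 482 and 529 normalized counts in wild-type against 550.3, 575 and 564 in Npffr1-KO. Its interval reached from -0.00 to 0.63. *Spi1*, which encodes PU.1, a transcription factor of the myeloid lineage, had 936, 927 and 1161 normalized counts in wild-type against 1264, 1266 and 1229 in Npffr1-KO. In *Spi1*, as in *Cd68* and *Adgre1*, the Npffr1-KO libraries lay closer to each other than the wild-type libraries did. Its log2 difference was 0.32 ± 0.11 (SE, interval 0.08 to 0.56, limma adjusted p = 0.15).

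*Csf1r*, *Csf1*, *Maf* and *Mertk* had estimates below 0. *Csf1r*, the receptor of the macrophage growth factor encoded by *Csf1*, had 3859, 4916 and 5016 normalized counts in wild-type against 4589, 4726 and 3812 in Npffr1-KO. The groups overlapped, and the interval of -0.34 to 0.20 leaves out a change of 1.5-fold in either direction. *Csf1* itself lay at 2006 to 2320.3 normalized counts in wild-type against 1762 to 2227 in Npffr1-KO (interval -0.38 to 0.09). *Maf*, a transcription factor of resident macrophages, lay at 1826 to 2107 normalized counts in wild-type against 1669 to 2101 in Npffr1-KO (interval -0.34 to 0.14). The ratio of *Csf1r* to *Csf1* was 1.92 to 2.23 in the wild-type and 2.12 to 2.36 in the Npffr1-KO libraries. *Mertk*, a receptor for the uptake of dying cells, had 418, 468 and 518 normalized counts in wild-type against 355, 391 and 278 in Npffr1-KO. It was lower in every Npffr1-KO library and did not pass the test (log2 difference -0.46 ± 0.15 SE, interval -0.80 to -0.13, limma adjusted p = 0.14).

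The resident macrophage genes went in both directions, and none of the 6 tested passed, in limma or with voom weights. Of the 6, 2 had an unadjusted p below 0.05 in limma, against 20% of all genes tested. *Timd4*, a receptor for phosphatidylserine on dying cells, had 658, 817 and 1069.8 normalized counts in wild-type against 1648, 1175 and 756 in Npffr1-KO. *Lyve1*, a hyaluronan receptor also found on lymphatic endothelium, had 777, 1367 and 1707 normalized counts in wild-type against 1496, 1441 and 901 in Npffr1-KO. Both genes spread widely within a genotype, and their intervals were -0.12 to 1.01 for *Timd4* and -0.57 to 0.63 for *Lyve1*. *Folr2*, a folate receptor, had 778, 1009 and 1041 normalized counts in wild-type against 944, 1086 and 1387 in Npffr1-KO (interval -0.08 to 0.61). *Cd163*, the scavenger receptor for haemoglobin bound to haptoglobin, had 778, 983 and 819 normalized counts in wild-type against 603, 700.4 and 574 in Npffr1-KO. It was lower in every Npffr1-KO library, at 860.0 ± 108 against 626 ± 66.2 (SD, n = 3), and missed the threshold (log2 difference -0.46 ± 0.12 SE, interval -0.73 to -0.18, limma adjusted p = 0.10). *Mrc1*, the mannose receptor, had 1594 to 2175 normalized counts in wild-type against 1700.0 to 2069.9 in Npffr1-KO. Its means of 1947 and 1918 were the closest among the resident genes beside those of *Lyve1*, with an interval of -0.30 to 0.27. *Cd5l*, which encodes a protein that macrophages secrete, was low, with 19.3, 17.6 and 41.7 normalized counts in wild-type against 84.8, 68.6 and 30.6 in Npffr1-KO. The genotypes overlapped, since Npffr1-KO library c lay below wild-type library c. The log2 difference of 1.18 ± 0.44 (SE) had an interval of 0.20 to 2.17 and a limma adjusted p of 0.18. *Vsig4*, a complement receptor of resident macrophages in other organs, had 8, 0 and 1 reads in wild-type and 1, 1 and 0 in Npffr1-KO, which is too few for a comparison.

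Neither lipid-associated gene passed, in limma or with voom weights. An unadjusted p below 0.05 in limma was reached by 1 of the 2, against 20% of all genes tested. *Trem2*, a receptor for lipids on macrophages, had 37.7, 54.8 and 45.7 normalized counts in wild-type against 68.4, 67.6 and 68.7 in Npffr1-KO. The genotypes did not overlap, and the log2 difference was 0.57 ± 0.24 (SE, interval 0.05 to 1.1, limma adjusted p = 0.22). *Gpnmb*, which encodes a membrane glycoprotein of lipid-laden macrophages, had 88.8, 143 and 81.4 normalized counts in wild-type against 81.0, 99.9 and 105 in Npffr1-KO. It overlapped between genotypes, with an interval of -0.64 to 0.45. *Tyrobp*, the signalling adaptor of *Trem2*, had 922, 1013 and 1294 normalized counts in wild-type against 1177, 1235 and 1629 in Npffr1-KO (log2 difference 0.32 ± 0.15 SE, interval -0.02 to 0.66).

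**Figure D3:**
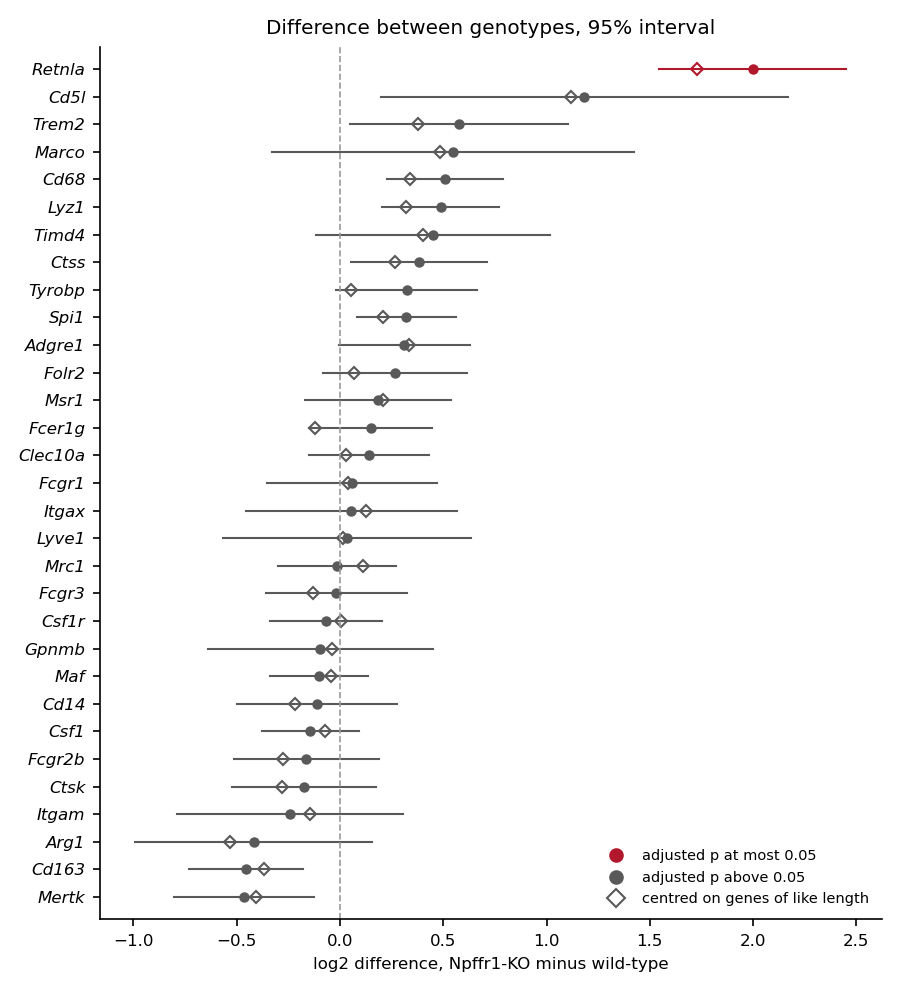
Log2 difference between genotypes, Npffr1-KO minus wild-type, of the 31 genes tested, ordered by size. Filled circles are the limma estimates with 95% intervals as lines, red for an adjusted p of at most 0.05, and open diamonds are the estimates after centring on genes of like length. *Retnla* stands alone at 2.0, and the next estimate is 1.18 for *Cd5l*, with a wide interval.

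*Marco* and *Msr1* are scavenger receptors of class A, which bind bacteria and modified lipoproteins. *Marco* had 310.0, 731 and 650.0 normalized counts in wild-type against 959, 1189 and 405 in Npffr1-KO, so that a library of either genotype was low. Its interval of -0.33 to 1.42 is, after that of *Cd5l*, the widest of the 31. *Msr1* lay at 169 to 194 normalized counts in wild-type against 184 to 243 in Npffr1-KO (interval -0.17 to 0.54). Neither gene had an unadjusted p below 0.05 in limma, and none passed with voom weights.

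None of the 5 Fc receptor and adaptor genes passed, in limma or with voom weights, or had an unadjusted p below 0.05. *Fcgr1*, the high-affinity receptor for immunoglobulin G, had 126 to 159 normalized counts in wild-type against 121 to 163 in Npffr1-KO. *Fcgr2b*, the inhibitory receptor, had 616, 755 and 983 normalized counts in wild-type against 635, 742 and 691 in Npffr1-KO. *Fcgr3*, an activating receptor, had 848, 1034 and 1081 normalized counts in wild-type against 805, 939 and 1210.1 in Npffr1-KO. The 3 receptors overlapped between genotypes, with intervals of -0.36 to 0.47, -0.51 to 0.19 and -0.36 to 0.32 in this order. *Fcgr2b* and *Fcgr3* are alike in sequence outside the cell, so reads could be split between them. *Fcer1g*, the gamma chain that signals for activating Fc receptors, lay at 1539.9 to 2102 normalized counts in wild-type against 1789 to 2239 in Npffr1-KO (interval -0.15 to 0.45).

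Of the lysozymes, integrins and cathepsins none passed, in limma or with voom weights. *Lyz1* and *Ctss* had an unadjusted p below 0.05 in limma, as did 20% of all genes tested. *Lyz2*, the lysozyme of macrophages, had 9262 normalized counts in wild-type against 11951 in Npffr1-KO in the authors' values, with no spread and no test. *Lyz1*, its near-identical neighbour on the chromosome, had 921, 909 and 1233 normalized counts in wild-type against 1525, 1338 and 1393 in Npffr1-KO. The genotypes of *Lyz1* did not overlap, and its log2 difference of 0.49 ± 0.13 (SE, interval 0.20 to 0.77, limma adjusted p = 0.092) missed the threshold. The authors' value of *Lyz1* was 0.111 of that of *Lyz2* in wild-type and 0.118 in Npffr1-KO, and the counting had to divide reads that match both. *Ctss*, a cathepsin of antigen processing, had 1904, 1948 and 2798 normalized counts in wild-type against 3216, 2822 and 2531 in Npffr1-KO (log2 difference 0.38 ± 0.15 SE, interval 0.05 to 0.71, limma adjusted p = 0.20). *Ctsk*, a collagen-cleaving cathepsin also made outside macrophages, had 861 to 1098 normalized counts in wild-type against 686 to 1041 in Npffr1-KO (interval -0.52 to 0.17). Of the integrins, *Itgam* had 356, 463 and 586 normalized counts in wild-type against 526, 418 and 265 in Npffr1-KO, and *Itgax* had 410.4, 309 and 592 against 550.3, 429.9 and 357. Both overlapped between genotypes, with intervals of -0.79 to 0.31 and -0.45 to 0.56. *Cd14*, the co-receptor for endotoxin, lay at 197 to 263 normalized counts in wild-type against 176 to 235 in Npffr1-KO (interval -0.50 to 0.27).

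Levels were compared between genes per 1000 bases of the length that the authors list. On this scale the mean of the authors' genotype values was 10035 normalized counts for *Lyz2*, which was followed by *Fcer1g* at 2708, *Tyrobp* at 2068, *Ctss* at 1869, *Retnla* at 1656 and *Csf1r* at 1158. *Retnla* had 701 normalized counts per 1000 bases in wild-type against 2611 in Npffr1-KO. The genes *Lyz1*, *Folr2* and *Cd68* lay together at 952, 951 and 950.2, and differed by less than the spread between libraries. At the low end were *Trem2* at 52.2, *Arg1* at 32.3, *Gpnmb* at 26.3, *Cd5l* at 21.5, *Chil3* at 2.68 and *Vsig4* at 1.24 normalized counts per 1000 bases. The resident genes ranged from *Cd5l* and *Vsig4*, under both lipid-associated genes, to *Timd4* at 469, *Lyve1* at 492 and *Folr2* at 951.

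In the authors' genotype values, 2 of the 32 genes that reached a mean of 10 were at least 1.5-fold higher in Npffr1-KO (6.25%, against 2.78% of all such genes), namely *Retnla* and *Cd5l*, with ratios of 3.72 and 1.97. None was 1.5-fold lower, against 3.12% of all such genes. The median ratio of the 32 genes was 1.07, and that of all such genes was 1.01. *Cd5l* is the less certain of the pair, since its libraries overlapped.

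The libraries of a genotype differed in their levels of the macrophage genes. In wild-type, library a was the lowest of the 3 in 22 of 31 genes, against 34.3% of all genes tested, and library c was the highest in 22 of 31, against 30.1%. The median deviation of the 31 genes from the mean of their genotype, on the log2 scale, was -0.20 in wild-type library a, 0.03 in b and 0.19 in c, whereas over all genes tested it stayed within 0.01 of 0. In Npffr1-KO the genes did not move as 1 group. Library c was the lowest in 14 and the highest in 12 of 31 genes, against 37.3% and 38.0% of all genes tested. The resident genes had a median deviation of -0.29 there, but were split, from -0.86 in *Cd5l* to 0.30 in *Folr2*. The 2 scavenger receptors had a median of -0.55, with -0.93 in *Marco* and -0.17 in *Msr1*, whereas the Fc receptor and adaptor genes had one of 0.21.

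Some genes were more variable within a genotype than nearly any other gene at their level. *Marco* had a standard deviation within genotypes of 0.75 on the log2 scale, and 0.0598% of the 3344 genes whose mean lay within 1.5-fold of its own had a larger one. For *Lyve1* the standard deviation was 0.50, exceeded by 0.186% of genes of like level, and for *Timd4* it was 0.47, exceeded by 0.523%. *Itgam* and *Itgax* followed at 0.44 and 0.40, exceeded by 1.72% and 2.62%. *Timd4*, *Lyve1*, *Marco* and *Itgam* were each lowest in library a of wild-type and in library c of Npffr1-KO. *Retnla* was also among the more variable genes, at 0.36, exceeded by 2.32% of the 3452 genes of like level. Its pattern was another one, lowest in library b of wild-type and highest in library c of Npffr1-KO. At the other end, the standard deviation of *Trem2* was 0.19, and 87.2% of genes of like level had a larger one.

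**Figure D4:**
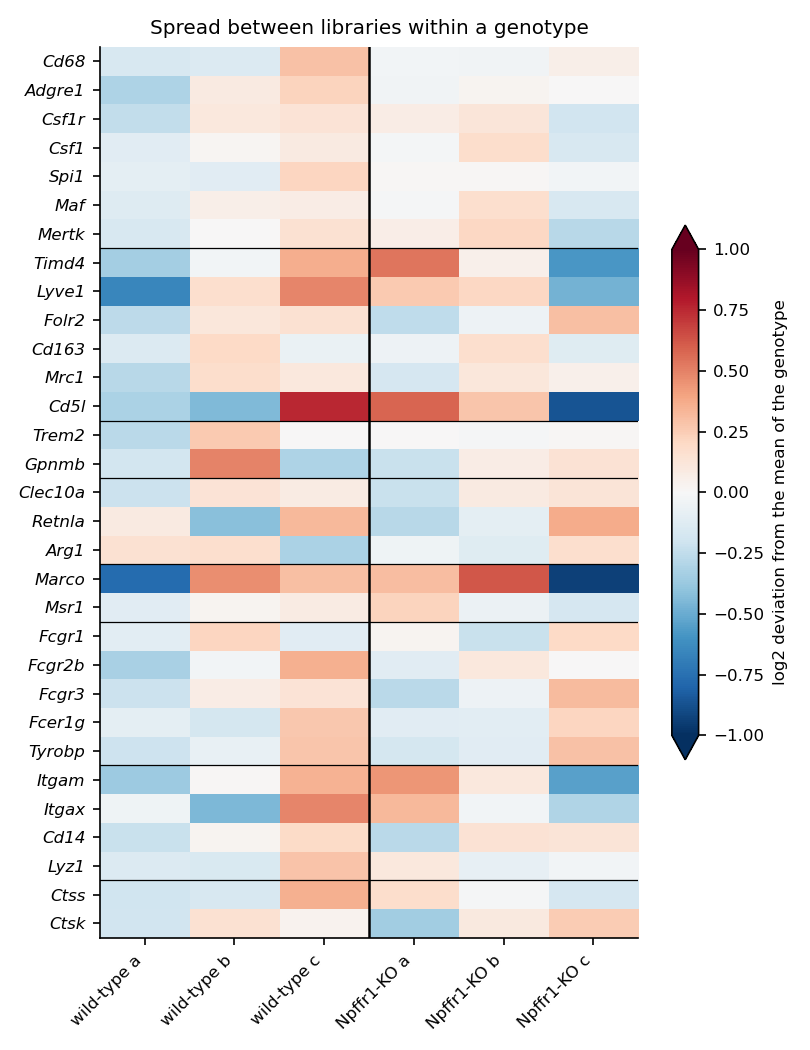
Deviation of each library from the mean of its genotype, on the log2 scale, for the 31 genes tested (rows, with lines between subgroups) in the 6 libraries (columns). Red is above and blue below the mean of the genotype. Wild-type library a is mostly blue and wild-type library c mostly red, and *Timd4*, *Lyve1*, *Cd5l*, *Marco* and *Itgam* are blue in Npffr1-KO library c, where *Retnla*, *Fcgr3* and *Fcer1g* are red.

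Short genes tended to be higher in Npffr1-KO across the whole table, and the shorter macrophage genes had the higher median as well. Over 20 classes of length, the median log2 difference of all genes tested fell from 0.27 in the shortest to -0.15 in the longest. Among the 16 macrophage genes under 2000 bases the median was 0.29 and 11 were above 0, whereas 69.9% of all genes of that length were above 0, with a median of 0.15. Among the 15 genes of 2000 bases or more the median was -0.01 and 7 were above 0, against 40.9% of all such genes and a median of -0.05. *Retnla* has 598 bases, and after centring on genes of like length in each library its log2 difference was 1.73 (limma adjusted p = 0.0014). *Cd68*, *Lyz1*, *Spi1* and *Ctss* were then at 0.34, 0.32, 0.21 and 0.27, and *Cd163* and *Mertk* at -0.37 and -0.41. *Tyrobp*, one of the shortest, was at 0.05 in place of 0.32, and *Fcer1g* at -0.12 in place of 0.15.

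**Figure D5:**
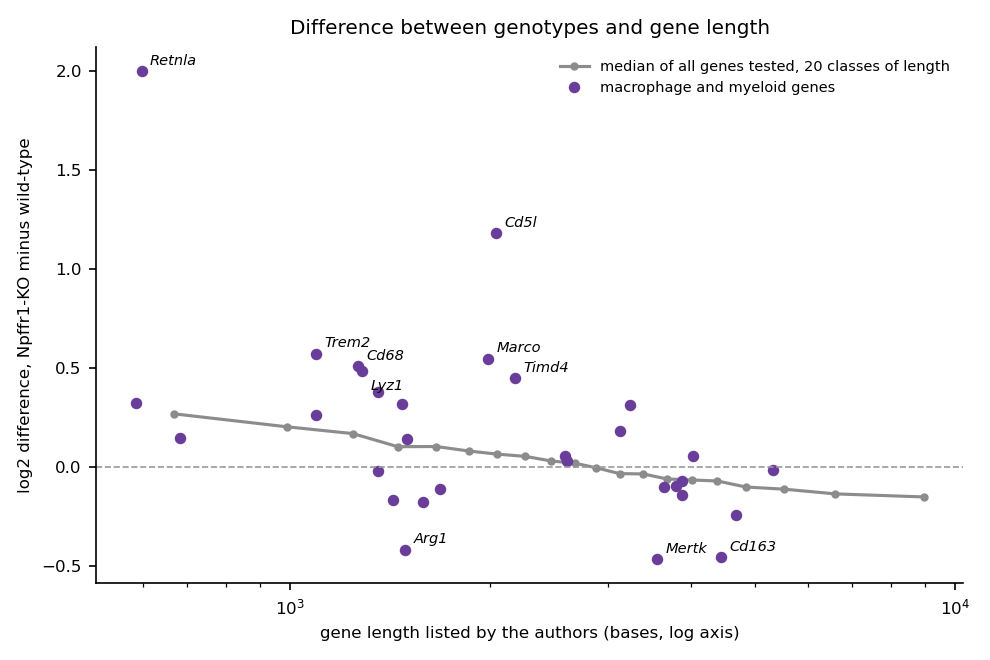
Log2 difference between genotypes, Npffr1-KO minus wild-type, against the gene length that the authors list (log axis). Purple points are the 31 macrophage and myeloid genes, and the grey line joins the medians of all genes tested in 20 classes of length, drawn at the median length of each class. The grey line falls from 0.27 to -0.15, and *Retnla*, at 598 bases and 2.0, lies far above it.

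Of 62 other macrophage genes, 61 were in the table and 54 were tested, of which 1 passed as higher and 0 as lower, with 13 of the 54 at an unadjusted p below 0.05, against 20% of all genes, and 1 passing with voom weights. The gene that passed was *Ly6c2*, a surface protein of inflammatory monocytes, with 234, 234 and 242 normalized counts in wild-type against 456, 378 and 523 in Npffr1-KO (log2 difference 0.92 ± 0.14 SE, limma adjusted p = 0.037). That call was lost when Npffr1-KO library a or any 1 wild-type library was left out (limma adjusted p up to 0.19), and with no variance trend (0.17). *Vcan*, a proteoglycan also expressed by monocytes, went the other way, with authors' values of 2131 normalized counts in wild-type against 1643 in Npffr1-KO, and did not pass (log2 difference -0.37, limma adjusted p = 0.19). Genes shared by most macrophages, though not all confined to them, were above 0 in 16 of 17 tested, against 7063 of all 14234 genes. Their median was 0.24, and 5 had an unadjusted p below 0.05. Among them *Sirpa* had a log2 difference of 0.04 and *Ptprc* one of 0.57. *Laptm5*, whose reads were not recovered, had an authors' ratio of 1.32. Resident genes outside the 34, among them *Stab1*, *F13a1* and *Ednrb*, had a median of 0.03 over 8 tested and none at an unadjusted p below 0.05. Lipid-associated genes outside the 34 (6 tested, among them *Cd63*) had a median of 0.08 and 1 at that limit. *Apoe* and *Fabp5* were not recovered, and had authors' ratios of 0.958 and 1.32. Classical activation genes, among them *Nos2*, *Cd86* and *Tnf*, had a median of 0.14 over 7 tested and 1 at that limit. Growth factor receptors and regulators, among them *Csf2rb* and *Irf8*, had a median of 0.05 over 10 tested and 3 at that limit, and *Klf4*, not recovered, had an authors' ratio of 1.15.

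Of the markers of other cell types given here, T cell genes alone held genes that passed, and the part of these cells in the results was not tested. In all 6 T cell genes every Npffr1-KO library lay above every wild-type library, as in 12.4% of all genes tested. Their summed levels were 6033 to 7606 normalized counts in wild-type against 10009 to 10923 in Npffr1-KO. Of the 6 genes *Lck*, *Cd3e* and *Cd3g* passed in limma (log2 difference 0.75, 0.65 and 0.79, adjusted p = 0.015, 0.048 and 0.046), while with voom weights *Lck* alone passed. *Cd4* was measured among the 6 and did not pass. Without wild-type library a or b, or without Npffr1-KO library a, none of the 3 genes kept its call (limma adjusted p 0.058 to 0.23). Of 17 alternatives of the limma fit, *Cd3e* lost its call in 10, *Cd3g* in 7 and *Lck* in 4. The fit with no variance trend was among these for all 3 genes. Dendritic cell genes (7 tested) summed to 1834 to 2409.6 normalized counts in wild-type against 2415 to 2832 in Npffr1-KO. They went in both directions, with 4 of the 7 above 0, against 7063 of all 14234 genes. *Ccr7* and *Flt3* were above 0 (log2 difference 0.50 and 0.43) and *Zbtb46* below (-0.27). Mast cell genes (5 tested, among them *Cma1* and *Mcpt4*) were all below 0, and summed to 6354 to 6896 normalized counts in wild-type against 3825 to 6013 in Npffr1-KO. *Tpsb2* was not recovered, and had an authors' ratio of 0.711. Neutrophil genes, among them *S100a9*, *Ngp* and *S100a8*, summed to 335 to 631 normalized counts in wild-type against 289 to 464 in Npffr1-KO. The 3 named were below 0, but the list went in both directions (log2 difference -0.79 to 1.02). Of the 8 tested, 4 were above 0, against 7063 of all 14234 genes. Of the 7 dendritic cell, 5 mast cell and 8 neutrophil genes tested, none passed in limma or with voom weights. In this order 1, 4 and 1 had an unadjusted p below 0.05 in limma, against 20% of all genes tested.

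Lymphatic endothelium, which also carries *Lyve1*, was followed by 5 tested genes, among them *Flt4* and *Pdpn*. They summed to 1555 to 2595 normalized counts in wild-type against 1282 to 2008 in Npffr1-KO. The sum was lowest in wild-type library a and Npffr1-KO library c, as *Lyve1* was. *Pdpn* itself was lowest in Npffr1-KO library a, at 417 normalized counts against 472 in b and 438 in c. Of the 5, 2 had an unadjusted p below 0.05 in limma, against 20% of all genes tested. *Ccl21a*, which was not recovered and is not in these sums, went the other way in the authors' values, with 5536 normalized counts in wild-type against 7100.4 in Npffr1-KO. Osteoclast genes, which bear on *Ctsk*, had 1 tested gene, *Mmp9* (log2 difference 0.09). *Acp5*, not recovered, had authors' values of 2830 normalized counts in wild-type against 4716 in Npffr1-KO, a ratio of 1.67, while *Oscar* lay under 10 and *Calcr* under 1. Fibroblast genes had 3 of 7 tested and a median of -0.11, with 1 at an unadjusted p below 0.05. *Col1a1*, *Col3a1* and *Dcn* were not among the 3, and had authors' ratios of 0.780, 0.823 and 0.812. The median authors' log2 ratio over the 7 was -0.28. The 5 proliferation genes, among them *Mki67*, *Top2a* and *Birc5*, had a median of 0.23 and none at that limit. None of these 4 lists had a gene that passed in limma or with voom weights, and none of the 7 adipocyte genes, among them *Fabp4*, *Lpl* and *Adipoq*, had recovered reads.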

How the data were processed

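RNA sequencing of total RNA, extracted with TRIZOL from iAT, was analysed in 3 wild-type and 3 Npffr1-KO samples, grouped by the genotype in the labels. Per the submitters' processing notes, Bowtie2, RSEM and DESeq2 were used. The sources used here do not give versions, the genome build or the annotation. The deposited table holds 1 signal per gene and genotype, which the authors made from read counts normalized for library size, and the gene length in bases. It also holds the authors' fold changes, p-values and up or down calls, and a second table repeats part of the first. None of these were used.

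The mean of both genotype values is the mean of reads over size factor in 6 libraries, and their ratio comes from a shrunken fit. Genes with a single read in all (585 genes) take 6 values, the inverse size factors, and the labelled genotype column that is higher gives the library's genotype. Below a mean of 25, exactly 1 set of whole reads matched the mean to its last digit for 5619 of 5650 genes. From a mean of 25 to 20000, whole reads had to match the mean and, with 4 constants of the fit estimated from 1638 genes, the ratio (within 3e-09 on the log2 scale, and from a mean of 100 within 1.5e-10 plus 1.5e-09 times the size of the log2 ratio), which gave 13123 of 14075 genes. Of 1435 genes with reads from the mean alone, 98.2% met the ratio. Part of these genes had also gone into the estimate of the constants, so this check is not independent of it. Over all genes recovered, 1.76 matches by chance are expected. In all 18742 of 19831 genes were recovered, and 93.0% of genes with a mean of at least 10 were tested. RSEM divides reads between alike genes by estimate, and the counts recovered are whole. Recovery and limma were tested on simulated data.

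Normalized counts were tested with limma 3.58.1 (R 4.3.3, variance trend, two-sided) on log2(normalized count + 1), which understates changes of low genes. Python 3.11.15 was used for the rest. Genotype values were described by a fold of 1.5, without a test. The 34 genes and the other lists were chosen with earlier results of these data known. Named beside the 34 are the 3 highest genes of each other list and those past the threshold. The results of 2 other lists are not reported here. Alternatives were other pseudocounts, filters, weights, scalings, centring on genes of like length, and leaving out each library. Promoter windows are RefSeq's.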

Additional observations from a re-analysis of the deposited data

How the results depend on the processing

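*Retnla* kept its direction in all 17 alternatives of the limma fit, with a log2 difference of 1.73 to 2.16, and passed in 16 of them. With no variance trend its adjusted p was 0.14, and the genes past the threshold fell to 0 of the 31 macrophage genes and to 4 of all genes. Without *Retnla*, an alternative chosen after seeing the data, 0 of 30 genes passed. No other gene of the 31 passed under any of the 17 alternatives. Of all genes, 13 to 578 passed when 1 library was left out, against 82 with all 6. The fewest came without wild-type library b (13), with 17, 29 and 18 without wild-type a, wild-type c and Npffr1-KO a, and the most without Npffr1-KO library b (578). The cause was not tested. In the authors' genotype values, a difference of 25% or more was reached by 12 of the 32 macrophage genes and 3621 of all 15309 genes with a mean of at least 10, and a fold of 2 by 1 and 122. With a mean of at least 50, 1 macrophage gene and 567 of all genes reached 1.5-fold.

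Of 527 values of the 31 genes under alternatives, 24 changed sign, in 12 genes whose main values were at most 0.24 in size and none of which passed. Centring on genes of like length gave 0.0036 for *Csf1r*, 0.11 for *Mrc1* and -0.12 for *Fcer1g*. With 1 library left out, the log2 difference went from -0.19 to 0.029 for *Csf1r*, -0.29 to 0.28 for *Lyve1*, -0.15 to 0.072 for *Mrc1*, -0.25 to 0.15 for *Gpnmb*, -0.042 to 0.17 for *Fcgr1*, -0.32 to 0.012 for *Fcgr2b*, -0.18 to 0.12 for *Fcgr3*, -0.46 to 0.031 for *Itgam*, -0.17 to 0.30 for *Itgax*, -0.22 to 0.023 for *Cd14* and -0.30 to 0 for *Ctsk*. No paired analysis was possible because the recovered libraries cannot be tied to the sample numbers of the labels.

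The median log2 difference of the 31 genes went from 0.034 to 0.23 with 1 library left out, the highest without wild-type library c. With 3 libraries a genotype, a p above the threshold does not show equal levels. Reads for high genes such as *Lyz2* and the adipocyte genes were not recovered.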

Other observations

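*Nnt*, the mitochondrial transhydrogenase gene that is known to be partly deleted in C57BL/6J mice, had 621, 652 and 660.0 normalized counts in wild-type against 1552, 1678 and 1565 in Npffr1-KO (log2 difference 1.31 ± 0.09 SE, limma adjusted p = 0.00026). It was named after its values were seen. The labels give no strain for either genotype, so that a difference in strain and the loss of *Npffr1* cannot be told apart for *Retnla* or any other gene here.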
